A study of Mus musculus with 16 samples.

Results

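The HOX cluster genes encode homeodomain transcription factors and lie in 4 clusters, Hoxa, Hoxb, Hoxc and Hoxd, on mouse chromosomes 6, 11, 15 and 2. Their members were chosen by symbol alone, as every gene named Hoxa, Hoxb, Hoxc or Hoxd followed by a number. No measured value entered that rule, but the family itself was taken up with the exercise differences of Hoxa4 on the control diet and of Hoxd8 on the high-fat diet already known, so these are given as a description. It found 39 of the 23970 gene symbols in the quadriceps table, of which 11 were Hoxa, 10 Hoxb, 9 Hoxc and 9 Hoxd genes. A mean of at least 0.5 FPKM (a level corrected for transcript length and for the mapped fragments of each library) over the 16 libraries was met by 15 Hox genes and by 11256 genes in all, and these entered the fit across genes.

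During development the order of Hox genes along a cluster follows the order in which they act along the body. The number in each symbol gives the paralogue group, low numbers acting towards the head and high numbers towards the tail and the ends of the limbs. Adult connective tissue and muscle cells keep part of that positional pattern, and HOX proteins bind DNA together with PBX and MEIS cofactors.

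The RNA came from the quadriceps, a thigh muscle, of male C57BL/6NTac mice aged 16 weeks that carried no engineered allele named in the labels. Mice ate a control diet (CON, 10% of kcal as fat) or a high-fat diet (HFD, 60% of kcal as fat) for 10 weeks. The post groups (CON-post, HFD-post) were sampled 3 h after 1 treadmill test run to exhaustion, and the pre groups (CON-pre, HFD-pre) were not run to exhaustion but had the same treadmill acclimatization and a fasting period that the methods call the same. The exercised mice were fasted for 3 h before the test and had water but no food afterwards. Each of the 4 groups had 4 libraries, and the design asks how a single bout of exercise and the diet shift muscle transcripts.

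FPKM summed to between 283575 and 329282 per library, and relative depth, read from the smallest steps of low genes with CON-pre replicate 1 set to 1, was between 0.706 and 1.12. Markers of the labelled tissue were present in every library, as 10 myofibre genes summed to between 46650 and 61130 FPKM. Skin markers were at most 4.78 FPKM in sum in 14 libraries, and reached 14.9 in CON-post replicate 1 and 36.1 in HFD-post replicate 3. In whole muscle, fewer cells of a type and less RNA per cell cannot be told apart.

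Promoter sequence was available for 22 of the Hox genes, as 24 promoters of RefSeq (GRCm38.p6). Those of Hoxd8 and Hoxd9 are shown because these neighbours, 4406 bases apart, are the 2 tested genes of the Hoxd cluster and had the lowest mean in HFD-post. Each is the plus strand, 5′ to 3′, of the 250 bases before the gene's start, at chr2:74704365-74704614 for Hoxd8 and chr2:74697513-74697762 for Hoxd9. Capitals mark a CCAAT box in Hoxd8 and a GC box in Hoxd9.
Hoxd8: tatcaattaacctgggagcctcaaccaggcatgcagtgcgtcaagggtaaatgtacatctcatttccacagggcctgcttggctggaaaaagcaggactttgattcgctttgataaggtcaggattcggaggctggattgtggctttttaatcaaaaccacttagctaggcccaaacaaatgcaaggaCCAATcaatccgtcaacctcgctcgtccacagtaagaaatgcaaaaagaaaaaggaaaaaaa
Hoxd9: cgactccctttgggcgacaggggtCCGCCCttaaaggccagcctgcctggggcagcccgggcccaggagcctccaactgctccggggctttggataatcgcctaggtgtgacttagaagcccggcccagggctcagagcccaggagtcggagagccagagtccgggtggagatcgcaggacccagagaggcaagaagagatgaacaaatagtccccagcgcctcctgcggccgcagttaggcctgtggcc

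The CCAAT box of Hoxd8 (CCAAT, or ATTGG on the other strand) began 62 bases before the start, and the GC box of Hoxd9 (GGGCGG or CCGCCC) began 226 bases before it. A CCAAT box was found in 33.8% and a GC box in 32.7% of 32851 mouse promoters of this length, and in 14 and 10 of the 24 Hox promoters. Neither window held the HOX-PBX letters TGATNNAT or their complement (7.68% of all promoters, 4 of 24 Hox promoters), the homeodomain core TAATTA (4.84%, 2 of 24) or TATAAA or its complement (12.4%, 4 of 24). These are letter matches in a short window and not binding sites. GC content was 44.4% in the Hoxd8 window and 65.2% in the Hoxd9 window. Their CpG observed-to-expected ratios were 0.487 and 0.49, between the median of all promoters (0.373) and that of the Hox promoters (0.721).

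One gene, Hoxc10, supplied most of the Hox signal in quadriceps. Hoxc10 belongs to paralogue group 10, which patterns the lumbosacral body region and the hindlimb. Its mean was 39.3 FPKM (35.1 to 46.0), rank 900 of the 11256 tested genes. The next gene, Hoxa10 of the same group, had a mean of 4.99 FPKM (3.56 to 6.63), so that Hoxc10 was 7.87 times higher on this per-length scale. Hoxc10 made up between 49.7% and 59.5% of the summed Hox FPKM of a library, with a median of 53.7%.

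Below these came Hoxd8 (mean 4.02 FPKM), Hoxc9 (3.70), Hoxc6 (3.39) and Hoxa9 (2.44). The next tier held Hoxc4 (1.76), Hoxa7 (1.66), Hoxa4 (1.31), Hoxc8 (1.21), Hoxc11 (1.21) and Hoxd9 (1.11). Hoxa3 (0.865), Hoxa5 (0.773) and Hoxc5 (0.712) were lowest among the tested genes. In this order only Hoxc10 and Hoxa10 were neighbours whose ranges over libraries did not overlap. Hoxa9 lay above Hoxc4 in all 16 libraries although their ranges overlapped, whereas Hoxc8 was above Hoxc11 in only 6 libraries.

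By cluster, Hoxc held between 67.2% and 75.5% of the summed Hox FPKM of a library. The median share was 18.2% for Hoxa, 8.45% for Hoxd and 2.56% for Hoxb. No Hoxb gene reached the minimum, although Hoxb3, Hoxb4, Hoxb5, Hoxb6 and Hoxb7 were above 0 in every library. By paralogue group, groups 9 to 11 held a median of 73.8% and groups 3 to 8 held 24.9%. The head-most groups 1 to 2 held 0.971%, and groups 12 to 13, which shape the ends of the limbs and the tail, held 0.242%.

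**Figure D1:**
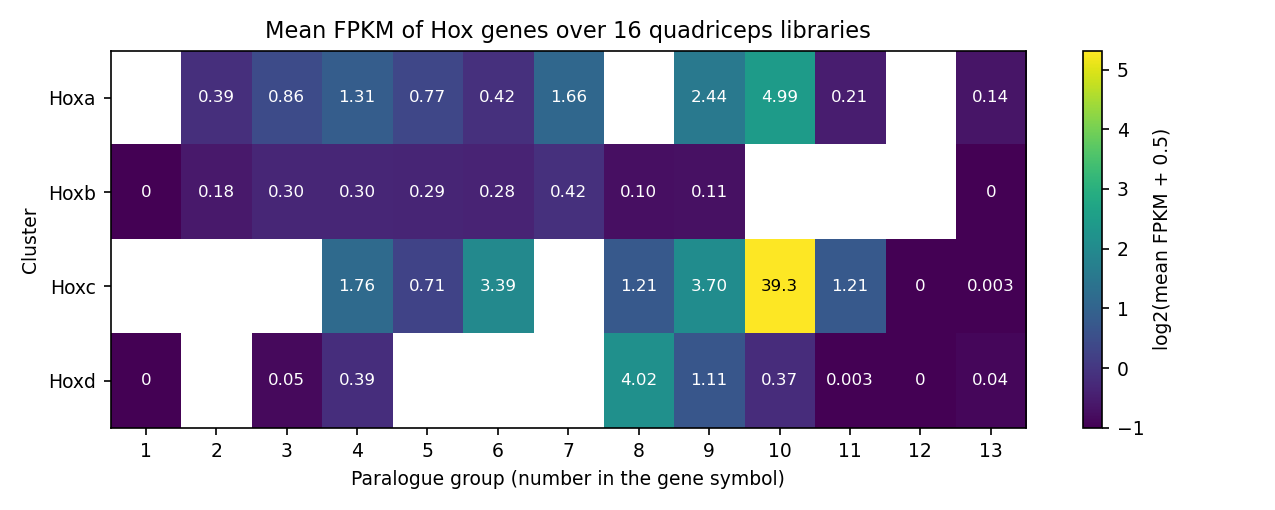
Mean FPKM over 16 libraries of each Hox gene, with clusters as rows and paralogue groups as columns, and colour giving log2(mean FPKM + 0.5). White cells have no gene in the table or are not shown. Hoxc10 (39.3) stands alone, Hoxa10 (4.99) follows, and the Hoxb row stays under 0.5.

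Of the 24 genes under the minimum, Hoxb1, Hoxb13, Hoxc12, Hoxd1 and Hoxd12 were listed at 0 in all 16 libraries. Hoxd11 was above 0 in 2 libraries and Hoxc13 in 1, and the other 17 genes were above 0 in 10 or more. Hoxb7 (mean 0.424 FPKM, range 0.0927 to 1.01) and Hoxa6 (0.422, 0 to 0.950) lay just outside the minimum and Hoxc5 (0.712, 0.452 to 1.09) just inside.

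Further down, Hoxa2 ranged from 0.0583 to 0.775 FPKM, Hoxd4 from 0.129 to 0.623 and Hoxd10 from 0.0713 to 0.647. Hoxb3 ranged from 0.111 to 0.559 FPKM, Hoxb4 from 0.0505 to 0.494, Hoxb5 from 0.0750 to 0.423, Hoxb6 from 0.0771 to 0.611 and Hoxb2 from 0 to 0.669. These genes overlapped widely and no order among them could be read. Hoxa11 ranged from 0.0473 to 0.413 FPKM, Hoxa13 from 0 to 0.429, Hoxb8 from 0 to 0.245, Hoxb9 from 0 to 0.285, Hoxd3 from 0 to 0.110 and Hoxd13 from 0 to 0.151.

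The low genes rested on few fragments. In 20 of 32 Hox genes searched, the FPKM values in the libraries, corrected for relative depth, were whole multiples of 1 step to within a mean distance of 0.1 of a step, where a step can be read as 1 counted fragment. Hoxd3 spanned 0 to 3 steps, Hoxd13 0 to 4, Hoxb7 1 to 9 and Hoxa11 1 to 10. Among tested genes, Hoxc5 spanned 9 to 25 steps, Hoxa5 7 to 23 and Hoxa4 4 to 28. Hoxd3 and Hoxd13 lay under the minimum and did not enter the fit across genes, whereas Hoxa4, at 4 steps in CON-post replicate 3, did.

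**Figure D2:**
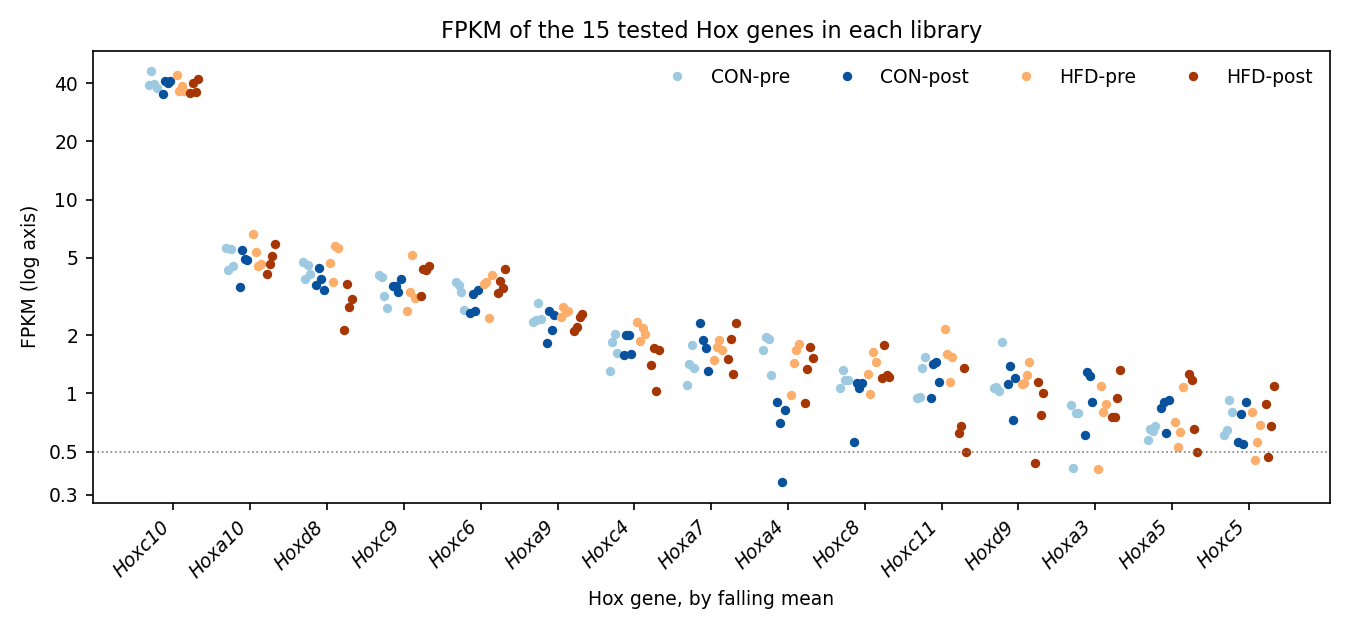
FPKM on a log axis of the 15 tested Hox genes, 1 point per library, coloured by group and ordered by mean. The dotted line marks 0.5 FPKM. Hoxc10 lies between 35.1 and 46.0 in all libraries, apart from the other 14 genes, whose ranges overlap from one gene to the next.

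For Hoxc10 and Hoxa10, the genes of highest mean, no group stood apart. Hoxc10 (chromosome 15, 102966796 to 102971898, GRCm38.p6) read 38.9, 46.0, 39.7 and 37.9 FPKM in CON-pre and 35.1, 41.2, 39.9 and 41.0 in CON-post. It read 43.9, 36.4, 38.8 and 36.5 FPKM in HFD-pre and 35.5, 39.9, 35.9 and 42.2 in HFD-post. All 4 groups overlapped. In limma fitted to log2(FPKM + 0.5) over all tested genes, which gives every fold change and standard error (SE) below, Hoxc10 changed by -0.05 (SE 0.09) in CON-post and -0.02 (SE 0.09) in HFD-post against their pre groups, both with adjusted p of 0.889 or more.

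Hoxa10 (chromosome 6, 52231197 to 52240854) read 5.62, 4.34, 5.55 and 4.57 FPKM in CON-pre and 3.56, 5.53, 4.93 and 4.86 in CON-post. It read 6.63, 5.35, 4.52 and 4.63 FPKM in HFD-pre and 4.13, 4.63, 5.10 and 5.93 in HFD-post. The groups again overlapped, and its log2 fold changes were -0.09 and -0.08 (SE 0.14) for exercise on CON and HFD. The highest Hoxb gene, Hoxb7 (chromosome 11, 96285604 to 96290163), was under the minimum. It had means of 0.382 ± 0.179 FPKM in CON-pre, 0.406 ± 0.274 in CON-post, 0.343 ± 0.154 in HFD-pre and 0.566 ± 0.317 in HFD-post (SD, n = 4).
Its single values were 0.452, 0.128, 0.543 and 0.404 in CON-pre, 0.0927, 0.437, 0.756 and 0.341 in CON-post, 0.555, 0.357, 0.220 and 0.239 in HFD-pre, and 0.255, 0.550, 0.454 and 1.01 in HFD-post, so that all groups overlapped.

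Exercise on the control diet was followed by a lower level of 1 of the 15 tested Hox genes, Hoxa4, at an adjusted p under 0.05, beside 1.11% of all genes tested and 0.142% called lower. Hoxa4, which takes part in patterning the neck vertebrae, lies at chromosome 6, 52189682 to 52191703. It read 1.67, 1.96, 1.90 and 1.24 FPKM in CON-pre and 0.903, 0.706, 0.348 and 0.824 in CON-post, every CON-post library below every CON-pre library (2.53% of all genes tested separated this way). In steps of 1 fragment these were 23.0, 19.1, 26.0 and 18.8 in CON-pre against 11.8, 9.94, 4.01 and 12.1 in CON-post.

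Hoxa4 was down-regulated by a log2 fold change of -0.89 (SE 0.19, limma adjusted p = 0.0265). This difference was known when the family was chosen, and is given as the base of the comparisons with its neighbours and with the HFD groups. The call was lost in 8 of 29 alternatives, with the adjusted p between 0.00961 and 0.0934 over all of them. It was over 0.05 with no filter (0.0638), with only the groups compared (0.0848) and with a replicate block (0.0649), and on dropping CON-pre replicate 1 (0.0805), 2 (0.0934) or 3 (0.0858). Dropping CON-post replicate 2 (0.0521) or 3 (0.0874) did the same. In RefSeq, Hoxa4 lies inside the span of Hoxa3, so the gene to which reads of the overlap belong is uncertain.

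The other 5 tested Hoxa genes were split in this contrast, 3 above 0 and 2 below, and none was called. Hoxa3 had a log2 fold change of 0.30 (SE 0.20), Hoxa5 of 0.21 (SE 0.18) and Hoxa7 of 0.26 (SE 0.16), with adjusted p of 0.578 or more in limma. Hoxa9 was at -0.12 (SE 0.11) and Hoxa10 at -0.09 (SE 0.14). Hoxc4, its paralogue in the Hoxc cluster, was at 0.07 (SE 0.13). Over the 15 genes, 9 were below 0 (51.6% of all genes tested) with a median of -0.06, beside -0.01 over all genes. Hoxd8 had -0.16 (SE 0.14), Hoxd9 -0.12 (SE 0.18) and Hoxc8 -0.21 (SE 0.15), none called.

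Of 12 marker lists of other cell types and of myofibres, the summed level of 1, satellite cells, did not overlap between CON-pre (16.3 to 18.7 FPKM) and CON-post (19.8 to 21.4). Of its 8 genes 4 were tested, 3 of them above 0 and none called, and no gene of the list was at 0 in all libraries. Endothelial genes were above 0 in 8 of 8 (median 0.20, none called), with sums that overlapped (62.2 to 74.7 FPKM in CON-pre, 69.7 to 95.9 in CON-post). Schwann cell genes were above 0 in 4 of 5 tested (median 0.24), smooth muscle and pericyte genes in 5 of 7 (median 0.12) and adipocyte genes in 7 of 8 (median 0.16), none called. Their sums also overlapped, at 29.3 to 36.8 and 35.0 to 47.3 FPKM for Schwann cells, 115.7 to 117.2 and 117.1 to 133.9 for smooth muscle and pericytes, and 132 to 213 and 120 to 211 for adipocytes. Blood and marrow genes were below 0 in 4 of 5 tested (median -0.36), myofibre genes in 6 of 10 (median -0.06) and skin genes in 2 of 4 (median -0.22). The 1 tested bone and cartilage gene was at -1.14. None of these was called, and their sums overlapped. Medians of the fibroblast, macrophage and tendon lists lay between -0.02 and 0.03. The part of these lists in the difference of Hoxa4 was not tested.

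On the high-fat diet Hoxa4 read 0.983, 1.44, 1.68 and 1.81 FPKM in HFD-pre and 0.895, 1.33, 1.74 and 1.53 in HFD-post, overlapping throughout. Its log2 fold change there was -0.08 (SE 0.19, limma adjusted p = 0.912). The difference between the diets in the response of Hoxa4 was 0.81 (SE 0.27, limma adjusted p = 0.9999) and did not pass the threshold.

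Exercise on the high-fat diet was followed by a lower level of a different tested gene, Hoxd8, 1 of 15 at an adjusted p under 0.05 beside 0.542% of all genes tested and 0.0533% called lower. Hoxd8 (chromosome 2, 74704615 to 74707933) read 4.73, 3.74, 5.74 and 5.64 FPKM in HFD-pre and 2.11, 3.66, 2.80 and 3.07 in HFD-post. The groups did not overlap, but only just, since the highest HFD-post value (3.66) lay beside the lowest HFD-pre value (3.74).

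Hoxd8 was down-regulated by -0.68 on the log2 scale (SE 0.14, limma adjusted p = 0.0399), which also was known when the family was chosen. The call was lost in 15 of 29 alternatives, with the adjusted p between 0.00905 and 0.149 over all of them. It was over 0.05 with no filter (0.0862), no mean-variance trend (0.0568), only the groups compared (0.146) and a replicate block (0.0953). Among the libraries compared it passed 0.05 without HFD-pre replicate 1, 3 or 4 (0.109, 0.149 and 0.0953) or HFD-post replicate 1, 3 or 4 (0.0959, 0.108 and 0.0815), and it did so as well (0.0511 to 0.0623) when any of 5 CON libraries was dropped, namely replicates 1 and 3 of CON-pre and 1, 3 and 4 of CON-post, which enter only the shared spread. HFD-post replicate 3 is the library with 36.1 FPKM of skin markers, and without it the log2 fold change of Hoxd8 was -0.67.

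On the control diet Hoxd8 read 4.78, 3.89, 4.58 and 4.14 FPKM in CON-pre and 3.65, 4.44, 3.91 and 3.42 in CON-post. These groups overlapped, and the log2 fold change was -0.16 (SE 0.14, limma adjusted p = 0.752). The difference between diets in the response was -0.53 (SE 0.20, limma adjusted p = 0.9999). Averaged over both diets, Hoxd8 was the 1 Hox gene called for exercise, at -0.42 (SE 0.10, limma adjusted p = 0.0291), beside 3.86% of all genes tested. The average includes the HFD difference of Hoxd8 that was already known, so this call is not separate evidence. That call was lost in 10 of 28 alternatives, where the adjusted p reached 0.0684, among them no filter, the replicate block (0.0571 each) and 8 fits without 1 library (replicates 1 and 3 of CON-pre, 1 and 4 of CON-post, 1, 3 and 4 of HFD-pre, and 3 of HFD-post). Hoxa4 had -0.48 (SE 0.13, adjusted p = 0.0553) in the same limma contrast. Of the genes in the 12 marker lists, 3 were called in it, all higher after exercise, again beside 3.86% of all genes tested. They were Pecam1 of the endothelial list at 0.36 (SE 0.06, limma adjusted p = 0.00141), Kcnj8 of the smooth muscle and pericyte list at 0.48 (SE 0.08, adjusted p = 0.0034) and Prx of the Schwann cell list at 0.39 (SE 0.09, adjusted p = 0.0239). Of the tested genes 6 of 8, 5 of 7 and 5 of 5 in these lists were above 0, as were 8 of 8 adipocyte, 7 of 8 macrophage and 4 of 4 satellite cell genes, none of them called. In the other lists 5 of 6 tendon, 3 of 4 skin and 3 of 5 blood and marrow genes were above 0. So were 4 of 10 myofibre, 5 of 12 fibro-adipogenic progenitor and fibroblast and 0 of 1 bone and cartilage genes, none called. The part of the marker genes in the averaged difference of Hoxd8, or of any pathway gene called in that contrast, was not tested.

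In HFD-post, 3 further Hox genes were lower at an unadjusted p under 0.05, making 4 of 15 with Hoxd8, all lower, beside 11.7% of all genes tested and 3.22% lower. None of the 3 passed the adjusted threshold with all libraries. Hoxc4 (chromosome 15, 103018097 to 103036856), a gene of the cervical and upper trunk groups, was named by the rule, and Hoxc11 and Hoxd9 were chosen after their values were seen.

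Hoxc4 read 2.33, 1.85, 2.18 and 2.03 FPKM in HFD-pre and 1.40, 1.71, 1.03 and 1.68 in HFD-post. With Hoxd8 it was 1 of 2 genes whose HFD groups did not overlap (lower in 2.1% of all genes tested). Its log2 fold change was -0.42 (SE 0.13, limma adjusted p = 0.220), and -0.31 (SE 0.13) without HFD-post replicate 3. In CON-pre it read 1.30, 1.85, 2.02 and 1.62 FPKM and in CON-post 1.58, 2.01, 2.01 and 1.59, groups that overlapped.

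Hoxc11 (chromosome 15, 102954526 to 102956701), of a group that acts in the posterior trunk and hindlimb, read 2.16, 1.61, 1.15 and 1.54 FPKM in HFD-pre and 0.622, 0.679, 1.35 and 0.50 in HFD-post. All HFD-post libraries except replicate 3 lay below HFD-pre. The log2 fold change was -0.74 (SE 0.19), lower than that of Hoxd8, with a limma adjusted p of 0.131. It was not called in 27 of 28 alternatives, where the adjusted p reached 0.319. The exception was the fit without HFD-post replicate 3 (0.0421), the library that overlapped HFD-pre. In CON-pre it read 0.944, 0.961, 1.35 and 1.55 FPKM and in CON-post 0.948, 1.42, 1.45 and 1.14, with a log2 fold change of 0.04 (SE 0.19).

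Hoxd9 (chromosome 2, 74697763 to 74700208), the neighbour whose promoter is printed with that of Hoxd8, read 1.12, 1.14, 1.24 and 1.45 FPKM in HFD-pre and 0.437, 1.14, 0.772 and 1.01 in HFD-post. The groups overlapped and the log2 fold change was -0.40 (SE 0.18, limma adjusted p = 0.408), or -0.24 (SE 0.17) without HFD-post replicate 1. In CON-pre it read 1.07, 1.08, 1.02 and 1.85 FPKM and in CON-post 1.12, 1.39, 0.731 and 1.2. Hoxd3, Hoxd4 and Hoxd10, under the minimum and outside the fit, were looked at after their values were seen. Hoxd10 had means of 0.445 ± 0.255 FPKM in HFD-pre and 0.175 ± 0.102 in HFD-post (SD, n = 4), in overlapping groups, whereas the Hoxd3 mean was 0.0569 in HFD-pre and 0.0671 in HFD-post and the Hoxd4 mean 0.436 and 0.372.

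Summed over the 9 Hoxd genes, FPKM was 5.85 to 8.40 in HFD-pre and 3.12 to 5.43 in HFD-post, against 5.56 to 6.99 in CON-pre and 5.34 to 6.65 in CON-post. The HFD groups did not overlap in this sum. Most of it was Hoxd8, so it largely repeats a difference already known and is no separate result for the cluster. The Hoxa sum (13.4 to 14.3 FPKM in HFD-pre, 11.4 to 16.0 in HFD-post) and the Hoxc sum (48.4 to 56.7 and 46.1 to 55.6) overlapped.

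The remaining Hox genes did not move in a shared direction. Hoxc9 had a log2 fold change of 0.21 (SE 0.16), Hoxc5 of 0.17 (SE 0.16), Hoxa3 of 0.17 (SE 0.20) and Hoxa9 of -0.15 (SE 0.11) in HFD-post, with limma adjusted p of 0.605 or more. Over the 15 genes 8 were below 0 (40.7% of all genes tested), with a median of -0.02 beside 0.04 over all genes. Under each of 3 other scalings 10 were below 0. There the median over all genes was 0.0006 (median-of-ratios), -0.0146 (quantile) and -0.0069 (upper-quartile), and the 40.7% does not apply. No marker list had sums that separated HFD-pre from HFD-post, but single markers moved. Pecam1 of the endothelial list rose by 0.39 on the log2 scale (SE 0.08, limma adjusted p = 0.0347), with 4 of its 8 genes above 0 and sums of 70.04 to 82.2 FPKM in HFD-pre and 75.4 to 84.3 in HFD-post. Kcnj8 of the smooth muscle and pericyte list rose by 0.65 (SE 0.12, limma adjusted p = 0.0198), with 5 of 7 above 0 and sums of 112 to 126 and 121 to 132 FPKM. Adipocyte genes were above 0 in 8 of 8 (median 0.44, none called), with sums of 82.4 to 91.6 and 77.4 to 186 FPKM. Schwann cell genes were above 0 in 5 of 5 tested (median 0.16, none called), with sums of 32.5 to 39.1 and 33.8 to 47.4 FPKM. Skin genes were above 0 in 4 of 4 tested (median 0.81, none called), with sums of 0.888 to 1.77 and 0.469 to 36.1 FPKM. No gene of these 5 lists was at 0 in all libraries. Their part in the Hoxd8 difference was not tested.

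**Figure D3:**
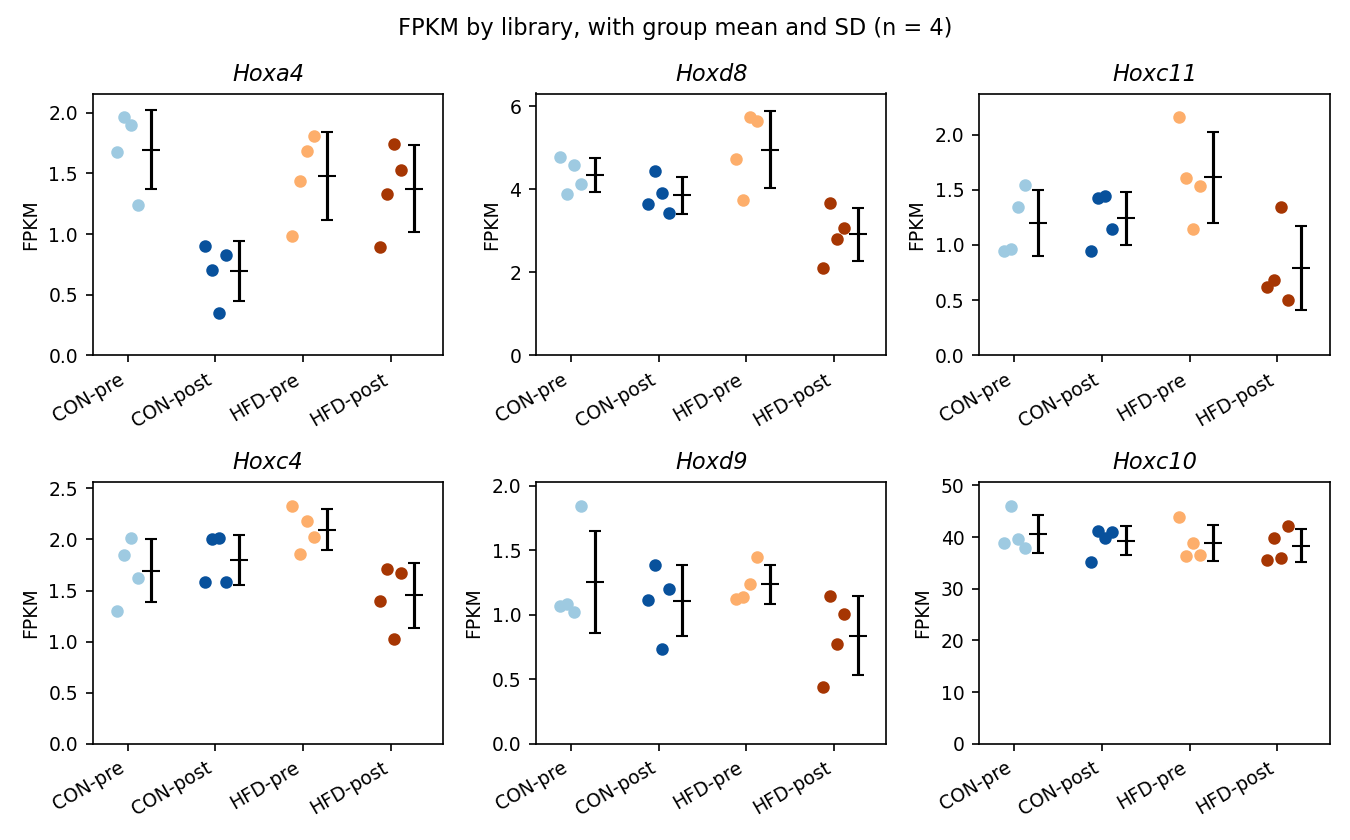
FPKM of 6 Hox genes in each of the 16 libraries (points) with the group mean and SD (bars, n = 4), each axis starting at 0. CON-post lies below CON-pre in Hoxa4, and HFD-post lies below HFD-pre in Hoxd8 and Hoxc4, whereas all groups overlap in Hoxc10.

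Before exercise, diet left the tested Hox genes without a call, 0 of 15 in limma and also 0 at an unadjusted p under 0.05, beside 0.346% and 8.25% of all genes tested. Log2 fold changes of HFD-pre against CON-pre lay between -0.16 and 0.31, with 3 of 15 below 0 (60.3% of all genes tested) and a median of 0.06, beside -0.03 over all genes. The lowest adjusted p was that of Hoxc4 (0.25, SE 0.13, adjusted p = 0.664). Hoxc11 was at 0.31 (SE 0.19), Hoxa7 at 0.21 (SE 0.16) and Hoxd8 at 0.16 (SE 0.14).

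CON-pre and HFD-pre differed in the makeup of their marker sums. Those of myofibres (57470 to 61130 against 50130 to 55020 FPKM), adipocytes (132 to 213 against 82.4 to 91.6) and skin (3.29 to 4.78 against 0.888 to 1.77) did not overlap and were lower in HFD-pre. Their genes did not all follow the sums, as 7 of 10 myofibre, 3 of 8 adipocyte and 3 of 4 tested skin genes were below 0. Among adipocyte genes Cfd fell by 1.97 on the log2 scale (SE 0.27, limma adjusted p = 0.00440) and Lep rose by 2.34 (SE 0.41, limma adjusted p = 0.0138), and no other gene of the 3 lists was called. Their part in the Hox values was not tested.

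After exercise, HFD-post against CON-post gave 0 of 15 Hox genes at an adjusted p under 0.05 in limma, beside 0.151% of all genes tested, and 4 at an unadjusted p under 0.05, beside 6.29%. This contrast uses the same post libraries as the exercise contrasts, so its values are not separate evidence. Hoxa4 was at 0.65 (SE 0.19, adjusted p = 0.328), Hoxc11 at -0.47 (SE 0.19) and Hoxd8 at -0.37 (SE 0.14).

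Hoxc8 (chromosome 15, 102990539 to 102994275), which patterns the thoracic skeleton, was the 1 gene of 15 whose post groups did not overlap (3.16% of all genes tested). It read 0.561, 1.13, 1.07 and 1.14 FPKM in CON-post and 1.2, 1.78, 1.24 and 1.21 in HFD-post. Its log2 fold change was 0.34 (SE 0.15, limma adjusted p = 0.755), and 0.19 (SE 0.13) without CON-post replicate 1, the lowest library. It read 1.07, 1.33, 1.17 and 1.17 FPKM in CON-pre and 1.26, 0.996, 1.63 and 1.45 in HFD-pre, and averaged over exercise states it was at 0.23 (SE 0.11, adjusted p = 0.481). That contrast called 0 of 15 Hox genes, none also at an unadjusted p under 0.05, beside 0.959% and 10.4% of all genes tested.

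The diet-by-exercise interaction called 0 Hox genes and 0 of all genes tested in limma. Before adjustment 4 of 15 had p under 0.05, Hoxa4 (0.81), Hoxc11 (-0.78, SE 0.27), Hoxd8 (-0.53) and Hoxc4 (-0.49, SE 0.19), beside 3.16% of all genes. The first difference was positive and the other 3 negative. No Hox gene passed the adjusted threshold for a difference of response between diets.

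Single genes were also compared by exact two-sided permutation of 4 against 4 libraries, 28 tests on the 7 genes named by the rule. The smallest p that 4 against 4 can give, 0.0286, was reached for Hoxa4 and exercise on CON, Hoxd8 and Hoxc4 and exercise on HFD, and Hoxc8 and diet after exercise. These 4 genes were named for their calls or lowest p values in the same libraries, so the exact tests repeat that choice and are no separate evidence.

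**Figure D4:**
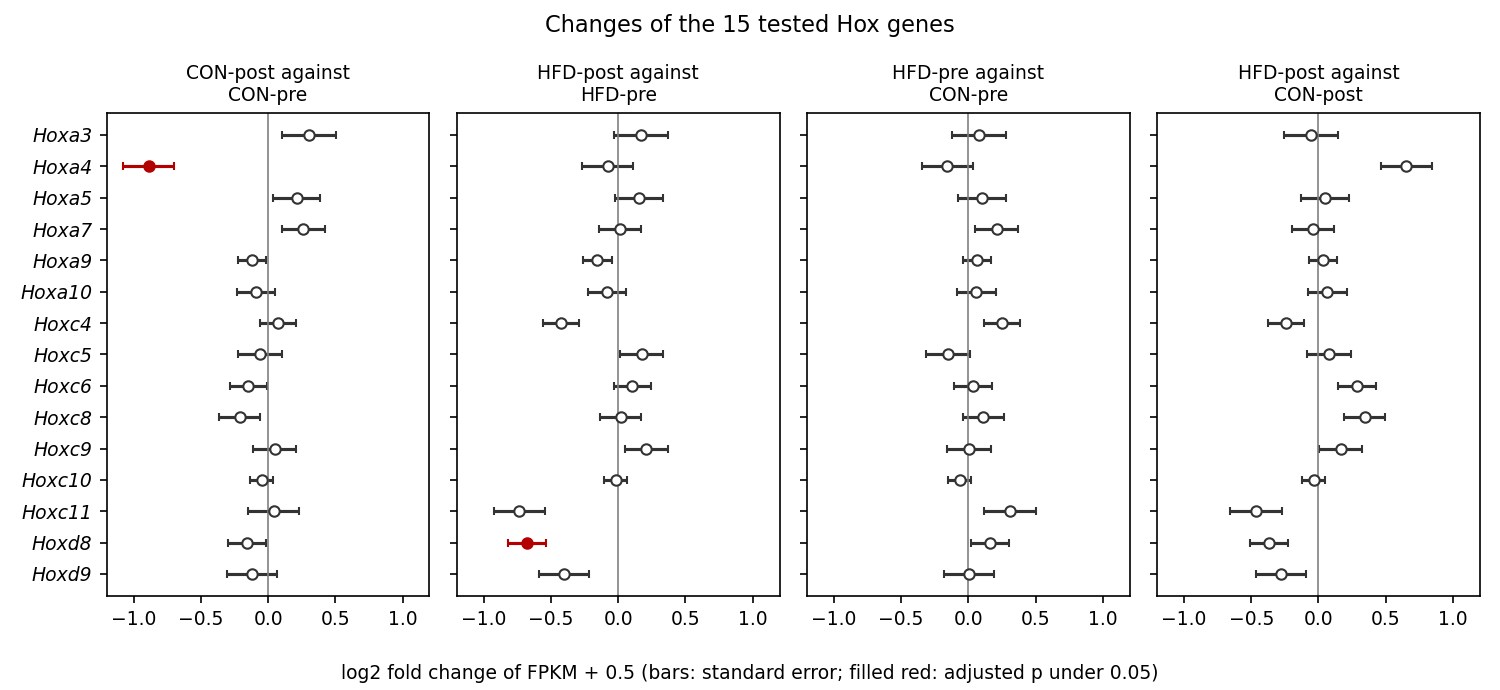
Log2 fold change of FPKM + 0.5 with its standard error for the 15 tested Hox genes in 4 contrasts, filled red where the adjusted p is under 0.05. Hoxa4 (-0.89) is red in the first panel and Hoxd8 (-0.68) in the second, while both diet panels hold open points.

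The partners and regulators of the HOX clusters were taken as lists. Of 9 HOX cofactor genes (PBX, MEIS and PKNOX) 7 were tested and 0 were called by limma in any contrast, with 2 of 7 at an unadjusted p under 0.05 for exercise on HFD (11.7% of all genes) and for diet after exercise (6.29%) and at most 1 in the other contrasts, and Pknox2 had the highest mean (9.32 FPKM). Of 14 Trithorax and H3K27 demethylase genes, which keep Hox loci active, 14 were tested and 0 were called, with 4 of 14 at an unadjusted p under 0.05 for diet averaged over exercise states (10.4% of all genes), 3 for diet before exercise (8.25%) and at most 1 in the other contrasts, and Dpy30 was highest (22.0 FPKM).

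Of 28 Polycomb genes, which keep Hox loci silent, 26 were tested, with Rbbp7 highest (31.3 FPKM). None was called within a diet, and averaged over diets 1 rose and 1 fell after exercise, 2 of 26 beside 3.86% of all genes tested. Ring1, a core subunit of the H2A ubiquitin ligase complex, had means of 3.88 ± 0.375 FPKM in CON-pre, 4.92 ± 0.688 in CON-post, 4.09 ± 0.744 in HFD-pre and 5.77 ± 0.702 in HFD-post (SD, n = 4). Its averaged log2 fold change was 0.38 (SE 0.09, limma adjusted p = 0.0227). That adjusted p was at most 0.0534 over the alternatives and passed 0.05 without CON-pre replicate 2, HFD-post replicate 2 or HFD-pre replicate 1. Pcgf3, a subunit of a variant of that complex, fell by 0.27 on the log2 scale (SE 0.06, limma adjusted p = 0.0127), and it was called in every alternative.

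Retinoic acid, which switches on Hox genes in embryos, was represented by 18 genes, 13 of them tested, with Aldh1a1 highest (57.6 FPKM). Averaged over diets, 2 of 13 were called for exercise, again beside 3.86% of all genes. Dhrs3, a retinal reductase that limits retinoic acid supply, rose by 0.44 on the log2 scale (SE 0.08, limma adjusted p = 0.00724). Its means were 12.8 ± 1.28 FPKM in CON-pre, 17.1 ± 2.60 in CON-post, 9.85 ± 1.58 in HFD-pre and 13.9 ± 1.33 in HFD-post (SD, n = 4), and it was called in every alternative. The receptor Rarb fell by 0.40 (SE 0.11, limma adjusted p = 0.0478), and that call was lost in 14 of 27 alternatives, where the adjusted p reached 0.101.

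Of 21 other transcripts of the HOX clusters, 13 were in the table and 1, Mira (2.65 FPKM), was tested and not called. Evx1 and 6 microRNA genes were listed at 0 in all libraries of this poly(A) RNA. Of 26 homeobox and T-box genes of limb and muscle position, 14 were tested, with Tbx15 highest (82.2 FPKM), and 1 was called for exercise averaged over diets, beside the same 3.86%. Six4, a homeobox factor of muscle development, fell after exercise averaged over diets by 0.32 on the log2 scale (SE 0.07, limma adjusted p = 0.0207), a call lost without CON-pre replicate 1 (0.0533). Chosen after their values were seen, the hindlimb genes Tbx4 (0.505 FPKM) and Pitx1 (0.0881) and the forelimb gene Tbx5 (0.252) were all far below Hoxc10.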

How the data were processed

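The deposited table held FPKM per gene for each of the 16 libraries (poly(A) RNA, stranded kit). Per the labels and the study's methods, the authors checked reads with FastQC, aligned them to mm9 with TopHat and estimated FPKM with Cufflinks, versions and strand setting not given in the sources used here. The deposited table held no columns of counts, so depth was judged from the steps of low FPKM values. Of 24487 rows, 27 named by a date (0.0771% of FPKM) were left out and 260 symbols in several rows, no Hox gene among them, were summed.

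Group means were fitted in limma 3.58.1 (R 4.3.3) with a mean-variance trend on log2(FPKM + 0.5), over the 11256 genes whose mean reached 0.5 FPKM, a scale that understates changes of low genes. Benjamini-Hochberg adjustment ran over all of these, and a gene was called at an adjusted p under 0.05. FPKM are not counts, so no count model was run. The fit was checked on simulated data. Each group had 4 libraries, which the study describes as muscles, and the sources used here do not say that each came from a different mouse, so p-values measure the spread between these libraries. Coordinates are those of RefSeq in GRCm38.p6, used because, of the loci that the study lists, the 721 whose symbol RefSeq also holds all overlapped it there, and sequences were read from the same release. Values in all libraries were given for called members, the highest member of each cluster and the member of lowest unadjusted p in each of 7 contrasts. Of the pathway lists, called genes and the highest member were named. The members, the gene lists and the step limits were chosen with earlier results of these data known. Alternatives covered the pseudocount, the filter, the scaling, the groups in the fit, the trend, array weights, a replicate block, symbols in several rows, the threshold and leaving out each library. The values of 1 Hox gene under the minimum are not reported here.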

Additional observations from a re-analysis of the deposited data

Results flagged for a closer look

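Among the 15 tested Hox genes, 60 sets of 4 libraries were searched for a library far from the other 3 by Dixon's criterion, and 5 were found. Chance gives about 1 in 20. In CON-pre, Hoxa9 read 2.93 FPKM in replicate 3 against 2.34 to 2.41 in the others, and Hoxd9 read 1.85 in replicate 4 against 1.02 to 1.08. In CON-post, Hoxc8 read 0.561 FPKM in replicate 1 against 1.07 to 1.14. In HFD-post, Hoxc8 read 1.78 FPKM in replicate 2 against 1.2 to 1.24, and Hoxc9 read 3.20 in replicate 1 against 4.34 to 4.56.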

How the results depend on the processing

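Over 13 alternative settings and 16 fits that each left out 1 library, 8 of 14 counts and single-gene results kept their direction and their side of the threshold, and no single gene changed sign. The 7 medians over Hox genes moved by less than the spread between libraries (SD 0.0997), but 4 of them changed sign in an alternative. They lay between -0.11 and 0.005 for exercise on CON, -0.10 and 0.03 for exercise on HFD, -0.05 and 0.08 for diet after exercise and -0.11 and 0.03 for the interaction, so no direction is read from them. The number of Hox genes called for exercise on CON went from 1 to 0 with no filter, with only the groups compared and with a replicate block, and lay between 0 and 1 on leaving out 1 library. For exercise on HFD it went from 1 to 0 with no filter, no mean-variance trend, only the groups compared and a replicate block, and lay between 0 and 1 on leaving out 1 library. Without HFD-post replicate 3 the gene called there was Hoxc11 in place of Hoxd8. For exercise averaged over diets it went from 1 to 2, Hoxa4 joining Hoxd8, with array weights, with median-of-ratios, quantile and upper-quartile scaling and at an adjusted p under 0.1. It went to 0 with no filter and a replicate block, and lay between 0 and 2 on leaving out 1 library. With no filter the adjustment ran over 17643 genes, and with only the groups compared over fewer libraries, and for the other settings the cause was not tested. Counts for diet and for the interaction were 0 in every alternative run.

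With the replicate block the adjusted p of Hoxa4 on CON was 0.0649 and that of Hoxd8 on HFD 0.0953. The shared numbers did not pair libraries, as 5 of 24 same-numbered pairs had correlations of deviations over 0.1 (median -0.02, other pairs 0.02). Low Hox genes are limited by few fragments, such as 4 to 28 steps per library for Hoxa4.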
